A study of Mus musculus with 12 samples.

Results

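Podoplanin (Pdpn), 6 C-type lectin receptors of myeloid cells (Clec1b, Clec4d, Clec4e, Clec4n, Clec5a and Clec7a) and the adaptor Scimp were followed in RAW264.7, a line of mouse cells that resemble macrophages. They are 8 of the 30464 genes named on the array, each measured by 1 probe set. They were selected on the log2 signals of these same 12 arrays, whose results were known, and Pdpn and Scimp in particular by their rise in KO medium against SCR medium. The levels of Pdpn and Scimp in KO medium are therefore described without a p-value.

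Cells of 4 groups, with 3 arrays each, were kept for 24 h in their medium. In 3 of them 50% of the medium was conditioned by PyMT-41C cells. In the KO medium group it came from PyMT-41C cells with JMJD6 knocked out. In the group given SCR medium with CSH, it came from SCR PyMT-41C cells and CSH, which per the labels blocks the receptor of annexin A1, was added. SCR medium came from SCR PyMT-41C cells without CSH, and the last group had normal medium. All 4 groups are the same line, so the knockout lies in the cells that made the medium and not in the cells measured. The labels name neither a vehicle group nor a group with CSH in normal medium, and they do not say whether the knockout cells are 1 clone. Whether the replicates came from separate cultures is not stated either, and the p-values then cover only the spread among these arrays, part or all of which may be technical.

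C-type lectin receptors of macrophages bind glycans and glycolipids of microbes and of dying cells. Mincle (Clec4e), MCL (Clec4d) and dectin-2 (Clec4n) signal through the Fc receptor gamma chain (Fcer1g), MDL-1 (Clec5a) through DAP12 (Tyrobp), and dectin-1 (Clec7a) and CLEC-2 (Clec1b) through a motif in their own tails. All of these routes recruit the kinase SYK, and in macrophages most lead on to CARD9. Podoplanin is a mucin-like membrane protein best known from lymphatic endothelium and stromal cells, it is also made by inflammatory macrophages, and it is the ligand of CLEC-2. SCIMP is a membrane adaptor of antigen-presenting cells that holds SRC family kinases beside Toll-like receptors and dectin-1.

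Levels are given as log2 RMA signals and differences as log2 differences with their standard error (SE), from a limma fit across all 18119 genes tested. Levels of different probe sets are not set against each other. Array medians lay between 5.40 and 5.52. Of the 8 genes, 7 had signals above the array's median over its probe sets in 12 of 12 arrays. Clec1b did so in 0 of 12 arrays, with signals between 4.86 and 5.10, and was not tested. The podoplanin receptor was thus not measured above the array median in any medium, while its ligand was measured in all of them.

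The macrophage label fitted the arrays, with 9 of 9 measured macrophage markers above the filter and Lyz2, lysozyme, the brightest of them at a mean of 17.78. Of 10 markers of mammary tumour epithelium, 2 passed the filter, and Epcam, Krt18 and Cdh1 exceeded the array median in 0 arrays. The summed signal of all 10 ran from 49.50 to 49.69 in KO medium and from 49.60 to 49.72 in SCR medium with CSH. It ran from 49.15 to 50.08 in SCR medium and from 49.29 to 49.58 in normal medium. Of 7 lymphatic endothelial markers 1 passed, of 5 fibroblast markers and 6 lymphocyte markers 0 passed, and of 6 platelet, 8 neutrophil and 8 dendritic cell markers 4, 5 and 3 passed.

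Podoplanin stood at 3 levels over the 4 media. Its signals were 9.02, 9.12 and 9.11 in KO medium, 7.94, 7.93 and 7.80 in SCR medium with CSH, 7.68, 7.92 and 7.95 in SCR medium, and 6.66, 6.77 and 6.72 in normal medium. Every KO array lay above every array of the SCR media with or without CSH, these overlapped with each other, and every normal medium array lay below all others. Pdpn averaged 7.85 ± 0.15 in SCR medium and 6.72 ± 0.06 in normal medium (SD, n = 3 each), a difference of 1.13 (SE 0.07, 2.19-fold, limma adjusted p = 2.76e-07). In KO medium it averaged 9.08 ± 0.06, 1.23 above SCR medium (SE 0.07, 95% interval 1.07 to 1.40, 2.35-fold) and 2.37 above normal medium (SE 0.07, 5.16-fold). By size it was the rise of rank 5 in KO medium against SCR medium and of rank 175 in SCR medium against normal medium. Pdpn lies on chromosome 4 at 143267409 to 143299564 (GRCm38.p6, the assembly of mm10).

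Scimp showed a like pattern over the media with more spread. It gave 10.59, 10.39 and 10.20 in KO medium, 9.67, 9.36 and 9.10 in SCR medium with CSH, 9.60, 9.44 and 9.38 in SCR medium, and 8.16, 8.31 and 8.11 in normal medium. The KO arrays did not overlap with any other group, nor did the normal medium arrays, while the SCR media with and without CSH overlapped. The mean was 9.47 ± 0.11 in SCR medium and 8.19 ± 0.10 in normal medium (SD, n = 3 each), a difference of 1.28 (SE 0.13, 2.43-fold, limma adjusted p = 9.24e-06). In KO medium the mean was 10.39 ± 0.20, 0.92 above SCR medium (SE 0.13, 95% interval 0.63 to 1.21, 1.89-fold). Without SCR replicate 3, SCR replicate 4 or KO replicate 1, this difference was 0.90, 0.87 and 0.82, and Scimp no longer passed the threshold. Since Scimp was selected by its rise in KO medium against SCR medium, nothing is read from its passing with all arrays. Scimp lies on chromosome 11 at 70790932 to 70812561.

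**Figure D1:**
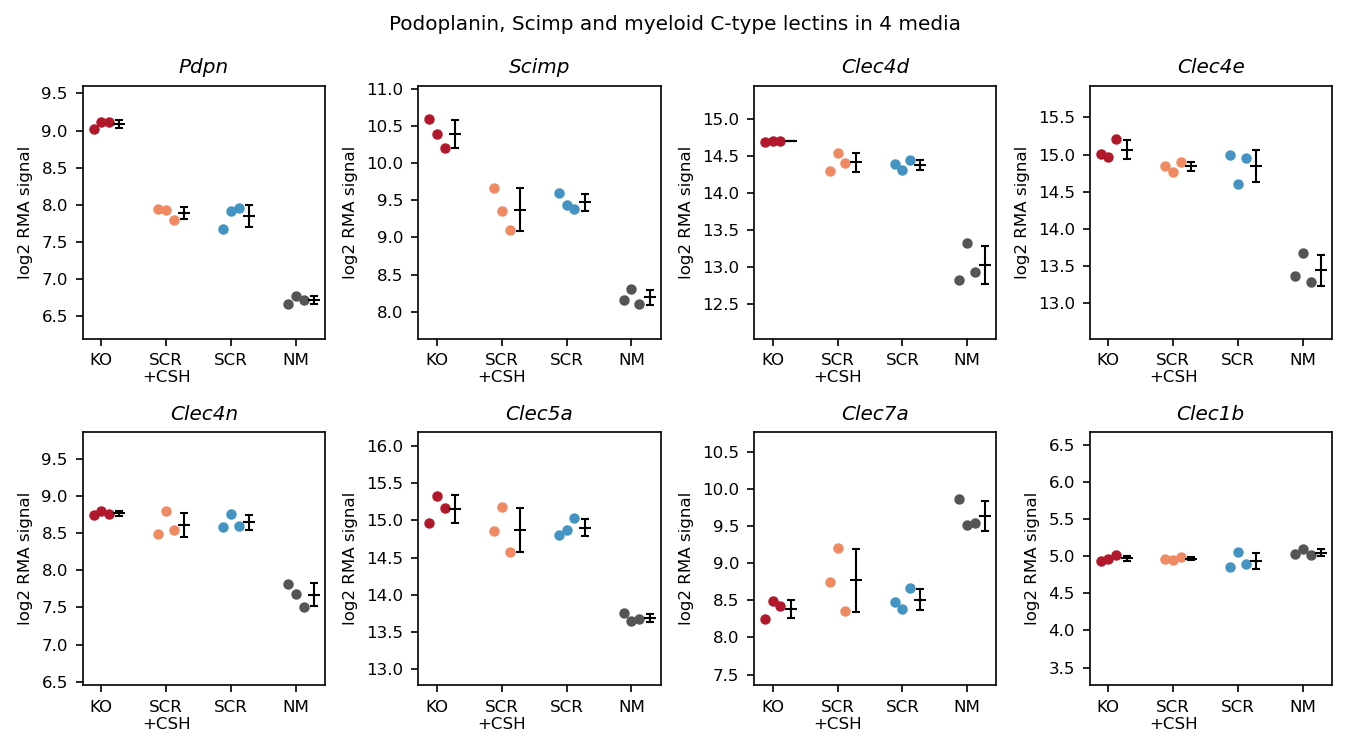
Log2 RMA signal (vertical axis) of the 8 genes in KO medium, SCR medium with CSH, SCR medium and normal medium, 1 panel per gene, each spanning the same number of log2 units. Points are arrays and bars are means ± SD (n = 3). Pdpn and Scimp sit highest in KO medium, Clec7a sits highest in normal medium, and Clec1b stays between 4.86 and 5.10 throughout.

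Clec4e and Clec4d, the Mincle and MCL genes, changed side by side. Clec4e gave 15.01, 14.97 and 15.21 in KO medium, 14.85, 14.77 and 14.90 in SCR medium with CSH, 15.00, 14.60 and 14.95 in SCR medium, and 13.37, 13.67 and 13.28 in normal medium. Clec4d gave 14.69, 14.70 and 14.70 in KO medium, 14.29, 14.54 and 14.40 in SCR medium with CSH, 14.39, 14.30 and 14.44 in SCR medium, and 12.83, 13.32 and 12.94 in normal medium. For both genes every conditioned medium array lay above every normal medium array. In SCR medium against normal medium Clec4e rose by 1.41 (SE 0.12, 2.66-fold, limma adjusted p = 1.39e-06) and Clec4d by 1.35 (SE 0.10, 2.54-fold, limma adjusted p = 8.89e-07).

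Clec5a, the MDL-1 gene, and Clec4n, the dectin-2 gene, rose as well. Clec5a gave 14.96, 15.33 and 15.17 in KO medium, 14.86, 15.18 and 14.58 in SCR medium with CSH, 14.81, 14.87 and 15.03 in SCR medium, and 13.75, 13.64 and 13.67 in normal medium. Clec4n gave 8.74, 8.80 and 8.76 in KO medium, 8.49, 8.80 and 8.54 in SCR medium with CSH, 8.58, 8.76 and 8.60 in SCR medium, and 7.82, 7.68 and 7.51 in normal medium. The 3 conditioned media overlapped with one another for both genes, and none of their arrays reached down to normal medium. The rises in SCR medium against normal medium were 1.22 for Clec5a (SE 0.13, limma adjusted p = 1.11e-05) and 0.98 for Clec4n (SE 0.09, limma adjusted p = 4.76e-06).

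Clec7a, the dectin-1 gene, went the other way. It gave 8.25, 8.49 and 8.42 in KO medium, 8.75, 9.20 and 8.36 in SCR medium with CSH, 8.48, 8.38 and 8.66 in SCR medium, and 9.87, 9.51 and 9.54 in normal medium. All normal medium arrays lay above all others. Clec7a fell in SCR medium to 8.51 ± 0.14, against 9.64 ± 0.20 in normal medium (SD, n = 3 each), a difference of -1.13 (SE 0.17, limma adjusted p = 0.000191). Its 3 arrays in SCR medium with CSH were the most spread of the 4 groups, with an SD of 0.42.

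In SCR medium against normal medium 6 of the 7 tested genes rose and 1 fell, and no group overlapped. Over all genes 35.2% were called, 19.3% higher and 15.8% lower, and 43.3% had arrays that did not overlap. The median difference was 1.22 for the 7 genes and 0.02 over all genes; since the genes were selected on these arrays, the gap is a description and supports nothing. The call for each of the 7 genes was kept in each alternative run, those that left out 1 array among them. These runs reuse the arrays on which the genes were selected, so the calls and their p-values are a description too. Fewer cells of a kind and less RNA per cell cannot be told apart in such bulk samples.

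Other macrophage and myeloid markers moved with the same change of medium, in which 35.2% of all genes were called, 19.3% higher and 15.8% lower. Csf1r, the M-CSF receptor, was at 11.90 in SCR medium and 13.70 in normal medium, and Adgre1, the F4/80 gene, at 9.79 in SCR medium and 11.24 in normal medium. Itgam, the CD11b gene, was at 15.00 in SCR medium and 14.03 in normal medium. Of the 9 macrophage markers 2 rose and 3 fell, and their summed signal ran from 126.84 to 127.93 in SCR medium and from 128.49 to 129.41 in normal medium. Of 5 tested neutrophil markers 1 rose, S100a8, at 7.28 in SCR medium and 5.06 in normal medium. It exceeded the array median in 9 of 12 arrays, none of them in normal medium. S100a8 was thus tested only through the media where it was high, and nothing is read from its call. S100a9 was at 6.61 in SCR medium and 6.65 in normal medium and was not called. Itgax, the CD11c gene, was the only 1 of 3 dendritic cell markers called, at 9.31 in SCR medium and 10.58 in normal medium. The summed signal of all 8 neutrophil markers, S100a8 included, ran from 46.02 to 46.81 in SCR medium and from 43.93 to 44.55 in normal medium. That of all 8 dendritic cell markers, Itgax included, ran from 45.58 to 46.61 in SCR medium and from 47.02 to 47.51 in normal medium. Of 4 tested platelet markers 1 rose, Pf4, at 6.84 in SCR medium and 6.49 in normal medium. The summed signal of all 6 measured platelet markers ran from 34.88 to 35.79 in SCR medium and from 34.60 to 34.86 in normal medium. The part of these markers in the differences of the lectins was not tested.

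In KO medium against SCR medium, Pdpn and Scimp were 2 of 7 genes past the threshold, where 0.270% of all genes were called, 0.254% higher. That count was known when the genes were chosen, and nothing is read from it. None of the 5 tested lectins passed: the difference was 0.32 for Clec4d (95% interval 0.09 to 0.55, limma adjusted p = 0.513), 0.25 for Clec5a (-0.03 to 0.53, adjusted p = 0.904), 0.21 for Clec4e (-0.04 to 0.46, adjusted p = 0.922), 0.12 for Clec4n (-0.08 to 0.32, adjusted p = 0.995) and -0.12 for Clec7a (-0.49 to 0.25, adjusted p = 0.995). The 3 KO arrays of Clec4d lay above the 3 SCR arrays. With Pdpn and Scimp, this made 3 of 7 genes with arrays that did not overlap, against 9.37% of all genes. Since Pdpn and Scimp were selected by their rise in these arrays, nothing is read from that count either. That Pdpn and Scimp differ from the lectins in their response to KO medium was not tested. Among the tested markers of the 8 cell types, none was called in KO medium against SCR medium (limma). S100a8 was at 8.30 in KO medium and 7.28 in SCR medium (limma adjusted p = 0.0938). Cd14 was at 13.91 in KO medium and 13.44 in SCR medium (adjusted p = 0.12), and Itgam at 15.31 and 15.00 (adjusted p = 0.529). The KO arrays of these 3 genes lay above the SCR arrays. The summed signal of the neutrophil markers ran from 47.03 to 47.54 in KO medium and from 46.02 to 46.81 in SCR medium, and that of the macrophage markers from 127.46 to 128.52 in KO medium and from 126.84 to 127.93 in SCR medium. The sums of the dendritic cell markers ran from 45.14 to 45.60 in KO medium and from 45.58 to 46.61 in SCR medium. Itgax was at 8.56 in KO medium and 9.31 in SCR medium, in arrays that did not overlap (limma adjusted p = 0.36). By size it was the fall of rank 1 among all genes tested. S100a8 is part of the neutrophil sum and Itgax of the dendritic cell sum. The next largest differences in these lists were -0.14 for Ly6g and -0.07 for Ccr7. The part of these markers in the differences was not tested.

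CSH left no call among the 7 genes against SCR medium, nor among all genes (limma, 0 of 18119, 0%, with 1131 genes at an unadjusted p under 0.05 and a lowest adjusted p of 0.0607). The differences ran from -0.10 for Scimp (95% interval -0.38 to 0.19, adjusted p = 0.963) to 0.26 for Clec7a (95% interval -0.11 to 0.63, adjusted p = 0.875). Pdpn differed by 0.04, with an interval of -0.12 to 0.20. The arrays overlapped for all 7 genes, while 8.59% of all genes had arrays that did not. For 6 of these 7 differences, Clec7a being the exception, the sign changed in at least 1 alternative, and none was called in any.

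**Figure D2:**
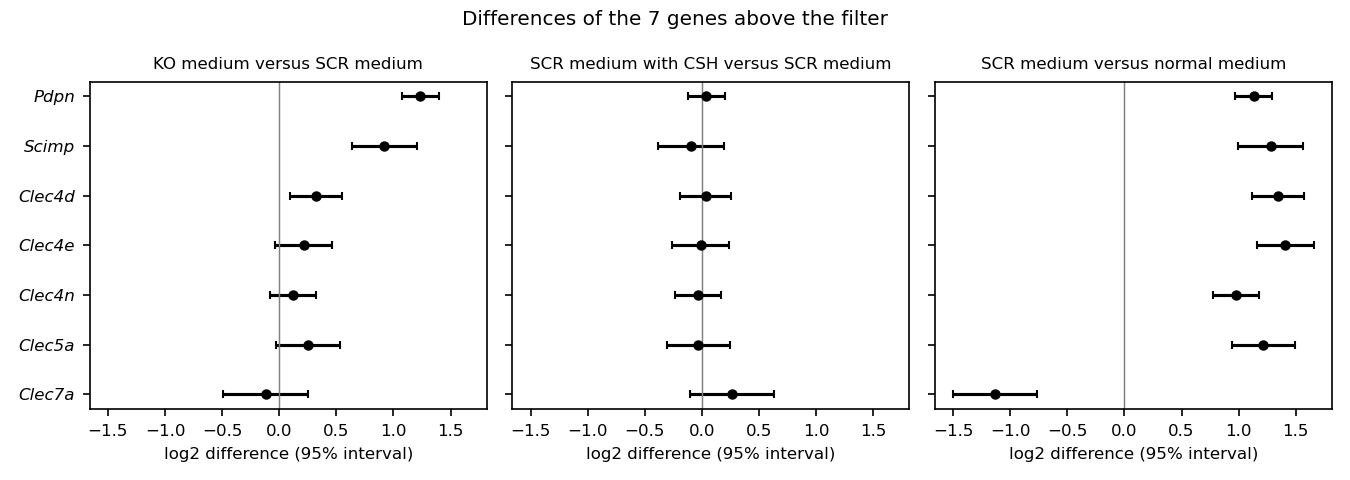
Log2 differences of the 7 tested genes in KO medium against SCR medium, SCR medium with CSH against SCR medium, and SCR medium against normal medium, with 95% intervals of the limma fit. Against normal medium 6 genes lie between 0.98 and 1.41 and Clec7a at -1.13; against SCR medium the KO values of Pdpn and Scimp stand at 1.23 and 0.92, and the CSH values lie between -0.10 and 0.26.

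Against normal medium, each of the other conditioned media gave the same direction for each gene. These comparisons share the normal medium arrays with each other and with the one above, so their values stand side by side only. In KO medium against normal medium, where 39.1% of all genes were called, the differences were 2.37 for Pdpn, 2.20 for Scimp, 1.67 for Clec4d, 1.62 for Clec4e, 1.47 for Clec5a, 1.10 for Clec4n and -1.25 for Clec7a. The adjusted p of the 5 lectins ran from 1.03e-07 for Clec4d to 6.53e-05 for Clec7a in limma. In SCR medium with CSH against normal medium, where 35.8% were called, all 7 genes passed, from 1.40 for Clec4e to 0.94 for Clec4n and -0.87 for Clec7a (limma adjusted p = 0.00142).

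KO medium was also set against SCR medium with CSH, a comparison in which 1.90% of all genes were called. Pdpn lay 1.19 higher (95% interval 1.03 to 1.36) and Scimp 1.02 higher (0.73 to 1.30). No lectin passed, the lowest adjusted p being 0.204 for Clec4d at 0.29. Clec7a was at -0.38 (limma adjusted p = 0.301). The KO arrays of Clec4d and Clec4e lay above all arrays with CSH, while those of Clec4n, Clec5a and Clec7a overlapped. With Pdpn and Scimp, 4 of 7 genes did not overlap, against 21.8% of all genes. Pdpn and Scimp were selected by their rise in the same KO arrays, so nothing is read from that count. Of the markers, Cd68 was called at 16.96 in KO medium and 17.15 in SCR medium with CSH (-0.19, limma adjusted p = 0.0383), and Itgax at 8.56 in KO medium and 9.70 in SCR medium with CSH (-1.13, adjusted p = 0.0202). The summed signal of the dendritic cell markers, Itgax included, ran from 45.14 to 45.60 in KO medium and from 46.47 to 46.60 in SCR medium with CSH. After Itgax, the largest difference among them was -0.08 for Cd209a. The part of these markers and of Cd68 was not tested.

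Several of the lectin genes are neighbours on chromosome 6. Clec4n (123229843 to 123247024), Clec4d (123262107 to 123275268) and Clec4e (123281789 to 123289871) fill 60.0 kb with no other C-type lectin gene of the annotation between them, and all 3 rose in SCR medium. Clec1b (129397297 to 129405413) and Clec7a (129461591 to 129472785) span 75.5 kb, with Clec9a and Clec1a between them. Of these 4, only Clec7a exceeded the array median in any array. Clec9a, a dendritic cell receptor of dead cells, gave group means of 4.38 in KO medium, 4.37 in SCR medium with CSH, 4.37 in SCR medium and 4.35 in normal medium. Clec1a gave 5.22 in KO medium, 5.21 in both SCR media and 5.20 in normal medium. Clec5a lies apart at 40574898 to 40585805.

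RefSeq promoter windows of GRCm38.p6, from 250 bases before to 50 bases after the annotated start, were found by symbol for 6 of the 8 genes, all but Clec4n and Scimp. They are printed for Clec4d, Clec4e and Clec5a, which rose together in SCR medium, for the lectin that fell (Clec7a) and for Pdpn. They are given 5′ to 3′ on the strand of the gene. Capitals mark matches, on either strand, of TTNNGNAA, a core motif of C/EBP factors, and of GAGGAA, a core motif of PU.1; these did not overlap each other in any of the windows.
Clec4d, chr6:123261857-123262156, plus strand: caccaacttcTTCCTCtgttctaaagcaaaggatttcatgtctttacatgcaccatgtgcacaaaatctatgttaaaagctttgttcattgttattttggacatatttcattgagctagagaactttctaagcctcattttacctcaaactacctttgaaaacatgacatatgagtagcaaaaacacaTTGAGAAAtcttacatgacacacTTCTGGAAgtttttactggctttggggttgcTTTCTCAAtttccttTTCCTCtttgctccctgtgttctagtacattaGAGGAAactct
Clec4e, chr6:123289822-123290121, minus strand: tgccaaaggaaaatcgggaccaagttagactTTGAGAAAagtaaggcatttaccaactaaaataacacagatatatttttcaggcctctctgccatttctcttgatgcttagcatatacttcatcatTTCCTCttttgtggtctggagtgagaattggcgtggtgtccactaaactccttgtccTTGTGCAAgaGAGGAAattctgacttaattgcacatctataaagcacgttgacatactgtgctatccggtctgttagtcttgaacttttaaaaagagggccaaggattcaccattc
Clec5a, chr6:40585756-40586055, minus strand: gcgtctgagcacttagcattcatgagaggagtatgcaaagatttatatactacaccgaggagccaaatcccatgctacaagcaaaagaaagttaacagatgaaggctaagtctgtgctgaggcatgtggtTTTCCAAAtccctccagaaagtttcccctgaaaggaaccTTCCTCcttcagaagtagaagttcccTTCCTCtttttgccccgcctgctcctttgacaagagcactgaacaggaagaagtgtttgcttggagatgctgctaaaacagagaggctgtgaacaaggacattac
Clec7a, chr6:129472730-129473029, minus strand: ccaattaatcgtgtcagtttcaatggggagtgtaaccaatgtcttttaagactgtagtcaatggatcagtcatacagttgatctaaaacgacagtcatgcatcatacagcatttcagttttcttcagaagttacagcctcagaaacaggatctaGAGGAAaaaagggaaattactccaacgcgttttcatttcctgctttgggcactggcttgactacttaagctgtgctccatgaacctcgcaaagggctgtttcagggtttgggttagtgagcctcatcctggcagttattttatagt
Pdpn, chr4:143299515-143299814, minus strand: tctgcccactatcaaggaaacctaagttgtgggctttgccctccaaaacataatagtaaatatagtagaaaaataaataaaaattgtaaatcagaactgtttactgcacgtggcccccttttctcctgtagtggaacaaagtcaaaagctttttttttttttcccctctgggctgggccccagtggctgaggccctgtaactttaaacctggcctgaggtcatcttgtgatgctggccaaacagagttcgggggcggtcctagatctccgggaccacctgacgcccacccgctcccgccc

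The C/EBP letters occurred 3 times in the window of Clec4d, 2 times in that of Clec4e, 1 time in that of Clec5a and 0 times in those of Clec7a and Pdpn. They are common letters, present in 40.7% of 32851 mouse promoter windows of the same length. The PU.1 letters occurred 3, 2 and 2 times in Clec4d, Clec4e and Clec5a, 1 time in Clec7a and 0 times in Pdpn, and in 28.3% of all windows. The Pdpn window instead held 5 overlapping or separate matches of an NF-kB motif (GGG and CC parted by any 5 bases, found in 50.8% of windows) and 1 of the E-box CACGTG, found in 7.15%. AP-1 (TGANTCA, 7.81% of windows), CRE (TGACGTCA, 1.79%) and STAT (TTCNNNGAA, 8.30%) letters were in none of the 5 windows. The first base of the matches nearest the start lay at -8 for C/EBP in Clec4d and at -66 in Clec4e. A match says only that these letters are there.

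Of 14 listed transcription factors reported upstream of such genes, 10 were tested, among them C/EBP, AP-1 and NF-kB subunits, PU.1, MITF, STAT3 and IRF4. In SCR medium against normal medium, where 35.2% of all genes were called (19.3% higher, 15.8% lower), 4 rose and 3 fell. The median of the 10 was 0.20. Fosl2, the AP-1 subunit FRA-2, rose by 2.02 (limma adjusted p = 1.16e-06) and Cebpd by 0.33 (adjusted p = 0.00177), while Mitf fell by 0.95 and Jun by 1.22. Spi1, the PU.1 gene, was singled out for its motif after its value had been seen and did not pass (-0.09, limma adjusted p = 0.457). The list was chosen with earlier results of these data known, so nothing is read from the count that follows. Of the 10, 1 was called in KO medium against SCR medium, where 0.27% of all genes were. It was Fosl2, at 12.18 in KO medium and 11.12 in SCR medium (1.05, SE 0.16, limma adjusted p = 0.0165). That call was lost without SCR replicate 1 or 3 or KO replicate 1 or 3, with differences of 0.89 to 1.09, and with the 6 arrays of the comparison alone (adjusted p = 0.0677). Fos, Rela and Cebpb did not pass, at 1.15, 0.14 and 0.11 (limma adjusted p = 0.595, 0.953 and 0.988).

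The other C-type lectin receptors gave a mixed picture. Of 42 measured, 20 were tested, and in SCR medium against normal medium 3 rose, 5 fell and 12 were not called. Since 35.2% of all genes were called there (19.3% higher, 15.8% lower), the count is not read as particular to these receptors. Their median was -0.06. Clec12a, an inhibitory receptor for uric acid crystals, fell by 2.27 (limma adjusted p = 4.12e-07). Cd302 fell by 0.53 (adjusted p = 0.000319) and Cd209c by 0.36 (adjusted p = 0.00209), and Mgl2, a galactose-binding receptor, rose by 0.41 (adjusted p = 0.00198). None of the 20 passed in KO medium against SCR medium (limma). Cd93 was nearest, at 14.52 in KO medium and 14.07 in SCR medium (0.46, limma adjusted p = 0.0793), and Clec10a, Clec2d and Thbd were at 0.22, 0.31 and 0.25 (adjusted p = 0.215, 0.588 and 0.643). Cd93 passed without normal medium replicate 3, which is in neither group (adjusted p = 0.0365), and with array weights (0.0378), as did Clec10a (0.0276).

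**Figure D3:**
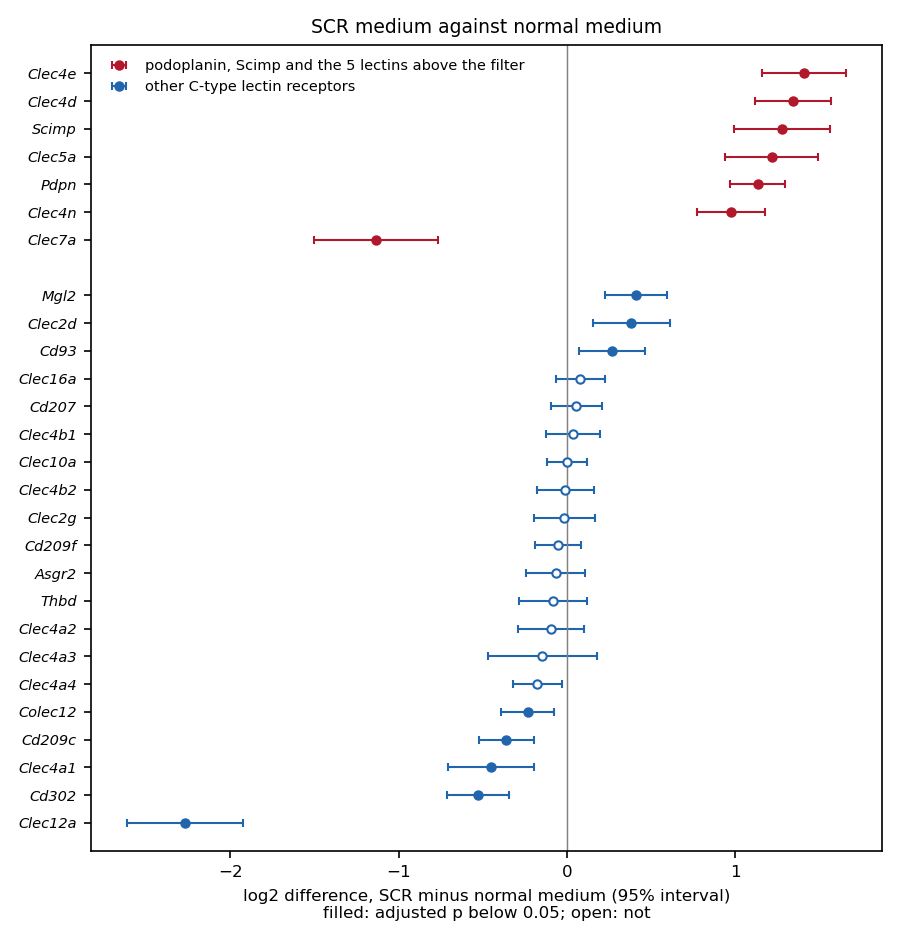
Log2 difference in SCR medium against normal medium, with 95% intervals, for Pdpn, Scimp and the 5 tested lectins (top) and the 20 other tested C-type lectin receptors (bottom). Filled points have an adjusted p below 0.05. Of the upper genes 6 lie between 0.98 and 1.41, and of the lower genes Mgl2 is the highest, at 0.41, and Clec12a the lowest, at -2.27.

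Receptor adaptors, kinases and brakes of the SYK route did not follow the lectins in 1 direction. Of 25 adaptors and kinases tested, 5 rose, 10 fell and 10 were not called in SCR medium against normal medium. The share called over all genes was 35.2%, with 19.3% higher and 15.8% lower. The median of the 25 was -0.07. Falls were led by Blnk, an adaptor of phospholipase C gamma (-1.18, limma adjusted p = 4.43e-07), Pik3cd, the delta catalytic subunit of PI3 kinase (-1.02, adjusted p = 5.15e-07), Malt1, the paracaspase that works with CARD9 and BCL10 (-1.01, adjusted p = 1.72e-06), and Fgr, a SRC family kinase (-1.40, adjusted p = 2.7e-06). The genes through which the lectins reach CARD9 were singled out after their values had been seen. Fcer1g was at 13.33 ± 0.18 in SCR medium and 13.00 ± 0.12 in normal medium (0.33, limma adjusted p = 0.0159), with arrays that overlapped. Tyrobp was at 16.72 ± 0.10 in SCR medium and 16.90 ± 0.08 in normal medium (-0.18, adjusted p = 0.0248). The call of Fcer1g was lost without SCR replicate 1 or 4 or normal medium replicate 3 or 4, and that of Tyrobp without SCR replicate 3 or normal medium replicate 2 or 4. Both were lost with each array centred on its median, and that of Tyrobp with quantile normalization. Syk and Card9 did not pass, at 0.11 (adjusted p = 0.367) and 0.20 (adjusted p = 0.108); without SCR replicate 3 Card9 passed at 0.28.

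Of 15 brakes on the route 2 rose and 5 fell in SCR medium against normal medium, with a median of -0.14. Over all genes 35.2% were called there, 19.3% higher and 15.8% lower. Ptpn6, the SHP-1 phosphatase, fell by 1.37 (limma adjusted p = 7.71e-07), Inpp5d, the SHIP1 lipid phosphatase, by 0.96 (adjusted p = 1.24e-05), Dok1 by 0.77 (adjusted p = 2.75e-05) and Csk, the kinase that restrains SRC family kinases, by 0.28 (adjusted p = 0.00364). None of the 25 adaptors and kinases and none of the 15 brakes passed in KO medium against SCR medium (limma). Syk and Lcp2 were at 0.24 and 0.23 (adjusted p = 0.595 and 0.612), and Ptpn22 and Cblb at 0.38 and 0.25 (adjusted p = 0.312 and 0.267). Blnk and Ptpn6 leaned the other way, at -0.18 and -0.28 (limma adjusted p = 0.831 and 0.658). The median was -0.03 for the adaptors and kinases and 0.01 for the brakes, against 0.00 over all genes.

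**Figure D4:**
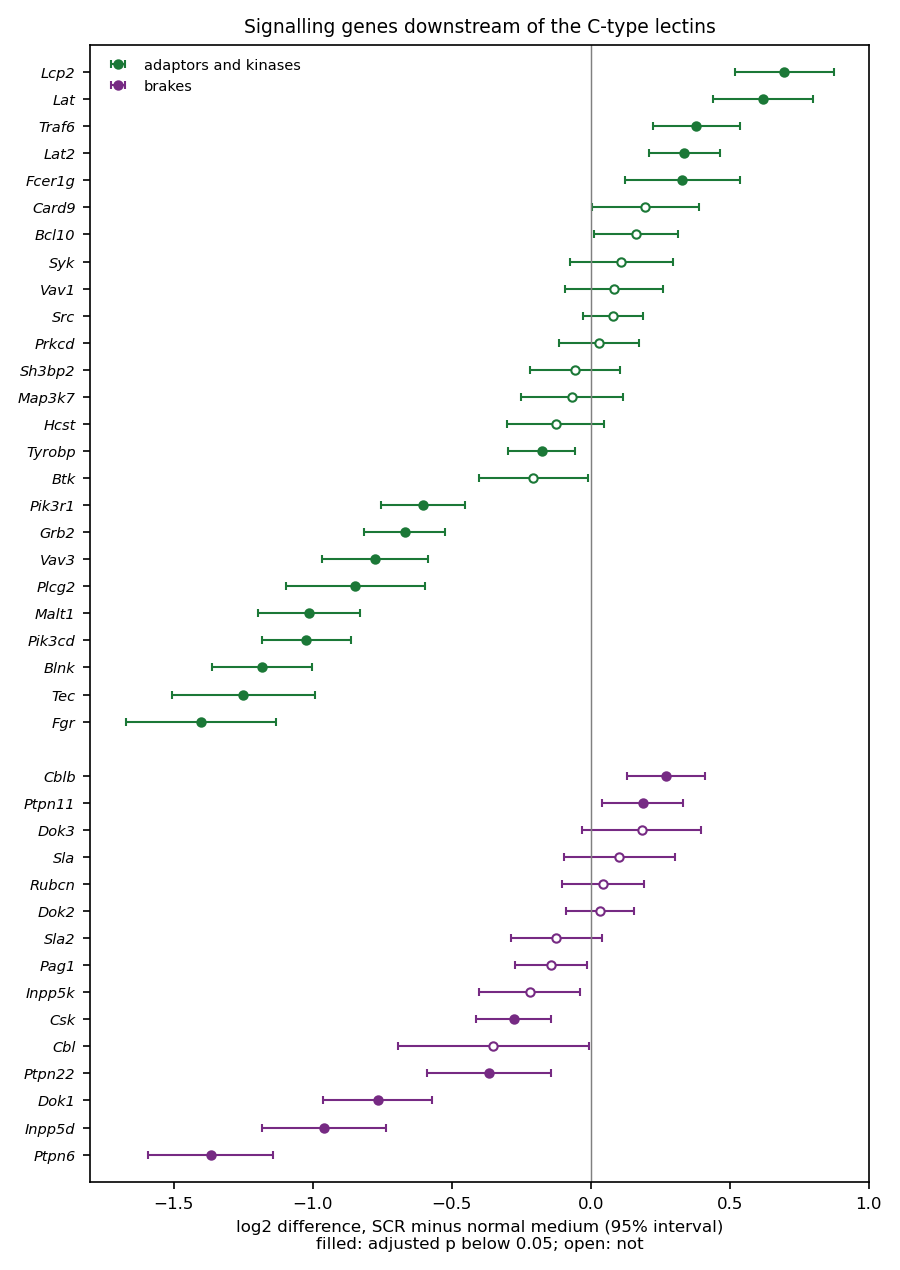
Log2 difference in SCR medium against normal medium, with 95% intervals, for 25 adaptors and kinases (top) and 15 brakes (bottom) of the SYK and CARD9 route, ordered by value. Filled points have an adjusted p below 0.05. Values run from 0.70 for Lcp2 to -1.40 for Fgr among the adaptors and kinases, and Ptpn6 is the lowest brake, at -1.37.

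The binding partners of SCIMP overlap with these lists. Of 5 tested in SCR medium against normal medium, Lcp2, the SLP-76 adaptor, rose by 0.70 (limma adjusted p = 2.84e-05), while Blnk, Csk and Grb2 fell, Grb2 by 0.67 (adjusted p = 6.96e-06). Of all genes 35.2% were called in that comparison, 19.3% higher and 15.8% lower. None of the 5 passed in KO medium against SCR medium (lowest limma adjusted p = 0.612), where Scimp itself was 0.92 higher.

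Of 11 tested partners of podoplanin 7 rose, 1 fell and 3 were not called in SCR medium against normal medium. In that comparison 35.2% of all genes were called, 19.3% higher and 15.8% lower. The median of the 11 was 0.31. Rhoc, a small GTPase of the cell cortex, rose by 1.02 (limma adjusted p = 5.18e-07). Lgals8, a galectin that binds podoplanin's glycans, rose by 0.82 (adjusted p = 5.49e-06), Msn, moesin, which ties its tail to actin, by 0.80 (adjusted p = 1.06e-06), and Hspa9, a mitochondrial heat shock protein, by 0.67 (adjusted p = 3.6e-05). None of the 11 passed in KO medium against SCR medium. Cd44, the hyaluronan receptor that pairs with podoplanin, was at 10.48 in KO medium and 10.05 in SCR medium, with arrays that did not overlap (0.42, limma adjusted p = 0.131).

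Of 20 genes that macrophages induce after SYK and CARD9 signalling, a list not specific to that route, 14 were tested. In SCR medium against normal medium, where 35.2% of all genes were called (19.3% higher, 15.8% lower), 5 rose and 3 fell. The median of the 14 was 0.27. The neutrophil chemokine Cxcl2 rose by 2.81 (limma adjusted p = 6.5e-07), Il1a by 2.06 (adjusted p = 9.07e-07) and Il23a, a subunit of IL-23, by 1.25 (adjusted p = 3.45e-06), and Nfatc1 fell by 0.55 (adjusted p = 0.000274). Of the 14, 2 were called in KO medium against SCR medium, where 0.270% of all genes were. This list too was chosen with earlier results of these data known, and nothing is read from that count. Cxcl2 was at 12.54 in KO medium and 11.26 in SCR medium (1.28, SE 0.21, limma adjusted p = 0.0247), and Il23a at 8.69 in KO medium and 7.96 in SCR medium (0.73, SE 0.12, adjusted p = 0.0201). The call of Cxcl2 was lost without SCR replicate 1, 3 or 4, with differences of 1.24 to 1.33, without the filter on low values and with the 6 arrays of the comparison alone. That of Il23a was lost without SCR replicate 3 or 4 or KO replicate 1 or 3, with differences of 0.65 to 0.75, and with the 6 arrays alone. Ccl2 and Ptgs2 were at 0.71 and 0.35 (limma adjusted p = 0.0813 and 0.283).

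The likeness of genes over the 12 arrays was described with Pearson's r, without a p-value, since the arrays fall into 4 groups and share their normalization. Clec4d and Clec4e were the most alike pair of the 7 genes (r = 0.98), followed by Clec4n with Clec5a (r = 0.97) and Pdpn with Scimp (r = 0.97). The 7 genes were selected on these arrays, Pdpn and Scimp both by their rise in KO medium. Nothing is therefore read from the likeness among them. Clec7a correlated negatively with each of the other 6, from -0.79 with Clec5a to -0.89 with Clec4e. The named genes most like Pdpn were Hbegf, a growth factor of the EGF family (r = 0.99), Blcap (r = 0.99), Kdm6b, a histone H3 demethylase (r = 0.98), Kpna4 (r = 0.98) and Plekhn1 (r = 0.97). Hbegf averaged 7.45 in KO medium, 6.50 in SCR medium with CSH, 6.55 in SCR medium and 5.72 in normal medium, the same order of media as Pdpn but for the close pair of SCR media.

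The nearest genes to Scimp were Pla2g5, Nkain1 and Il23a (r = 0.98 for each). Nearest to Clec4d were Ccr1, a chemokine receptor, Cth, an enzyme of cysteine synthesis, and Dclre1b (r = 0.99 for each), and to Clec4e Ptpn12, Dtx4 and Dcaf1 (r = 0.99 to 1.00). For Clec4n they were Ccdc80, Tatdn2 and Nek6 (r = 0.97 to 0.98), and for Clec5a Il1a, Itgam and S100a8 (r = 0.99, 0.99 and 0.98). Clec7a was most like Tlr7, a receptor of single-stranded RNA (r = 0.99), Sntb2 (r = 0.99) and Acox3 (r = 0.98), which were lower in all 3 conditioned media than in normal medium. Tlr7 averaged 11.35 in KO medium, 11.75 in SCR medium with CSH, 11.50 in SCR medium and 12.55 in normal medium.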

How the data were processed

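RNA of RAW264.7 cells was measured on 12 arrays, 1 per sample. The deposited values are log2 signals. The submitters' processing notes name RMA, Affymetrix Expression Console and mm10; the sources used here give neither versions nor further steps. Because RMA equalizes the arrays, a change in total RNA per cell would not show, and differences of dim genes are compressed. The number of arrays limits the precision.

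Probe sets were named through the platform table, with symbols updated through RefSeq (GRCm38.p6): 31018 of 65528 had 1 symbol, 1478 several and 33032 none listed here. The probe set with the highest mean stood for a gene. Genes above the array's median in at least 3 arrays entered the fit, made in R 4.3.3 with limma 3.58.1 (group means over 12 arrays, eBayes with an intensity trend, Benjamini-Hochberg adjusted p below 0.05). The fit was also run on simulated data with independent noise. That run holds no effects shared within arrays or replicates, so it cannot show how the fit handles them.

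The genes, lists, motifs and tests were chosen with earlier results of these data known. The lists covered other C-type lectins, adaptors and kinases, brakes, partners of SCIMP and of podoplanin, transcription factors, products and markers of 8 cell types. Named list genes had the 4 smallest p-values of a list in KO medium against SCR medium or in SCR medium against normal medium. Predicted genes, Riken clones, small RNAs and pseudogenes were left out of the likeness search. Some listed genes were not analysed here. Alternatives were other filters, normalizations, thresholds, array weights, a replicate block, the 6 arrays of a comparison alone, and each array left out. Python 3.11.15 and matplotlib 3.10.9 drew the figures.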

Additional observations from a re-analysis of the deposited data

How the results depend on the processing

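Over the alternatives run, the count of called genes among the 7 stayed at 7 in each of the 3 comparisons with normal medium, at 0 for CSH against SCR medium and at 2 for KO medium against SCR medium with CSH. In KO medium against SCR medium the count of 2 became 1 at an adjusted p below 0.01, and ran from 1 to 2 with each array left out; it was 1 without SCR replicate 3, SCR replicate 4 or KO replicate 1, where Scimp no longer passed. Pdpn and Scimp were selected by their rise in KO medium against SCR medium, so nothing is read from that count. All 7 genes were selected on these arrays, so the other counts are a description only. Changes of sign concerned differences that were not called. In SCR medium with CSH against SCR medium, array weights gave -0.0271 for Pdpn, -0.0076 for Clec4d and 0.0232 for Clec4n, quantile normalization gave -0.0449 for Clec4d, and the replicate block gave 0.035 for Clec4e. With each array left out, that comparison ran from -0.045 to 0.09 for Pdpn, from -0.0317 to 0.0933 for Clec4d, from -0.135 to 0.065 for Clec4e, from -0.1317 to 0.0233 for Clec4n, from -0.1833 to 0.1167 for Clec5a and from -0.2433 to 0.0417 for Scimp. In KO medium against SCR medium, Csk gave -0.0225 with the replicate block and -0.0133 to 0.0567 with each array left out.

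The replicate number as a block gave 1.23 for Pdpn and 0.87 for Scimp in KO medium against SCR medium, kept the count of called genes among the 7 at 2, and ended the call of Fosl2 (adjusted p = 0.0518). Same-numbered arrays of different groups had deviations from their group means that correlated above 0.1 in 5 of 12 pairs. Their correlations had a median of 0.069 and a highest value of 0.2948. Differently numbered pairs had a median of -0.0461 and a highest value of 0.2114. Pairs of number 1 ran from 0.1406 to 0.2948 and pairs of number 2 from 0.0751 to 0.2499. Those of number 3 ran from -0.0653 to 0.0138 and those of number 4 from -0.0543 to 0.0629. The numbers were not taken to pair the samples, and whether some of them do was not tested. All genes called in KO medium against SCR medium numbered 49, and 376 with array weights, 21 with the 6 arrays alone, 19 at an adjusted p below 0.01 and 20 to 50 with each array left out. For CSH against SCR medium they numbered 0, and 79 with array weights. For KO medium against SCR medium with CSH they numbered 345, and 107 to 373 with each array left out, 154 with median centring, 168 with the 6 arrays alone, 80 at an adjusted p below 0.01, and 210 without a filter, 214 with the block, 574 with quantile normalization, 654 with array weights and 631 at an adjusted p below 0.1. With array weights Cd93, Clec10a, Ptpn22, Cd44, Ccl2 and Ptgs2 were called in KO medium against SCR medium, and Syk and Card9 in SCR medium against normal medium. These weights gave SCR replicate 4 a weight of 6.14 and their estimation stopped before it converged. The cause of these changes was not tested.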
